A study of Homo sapiens with 6 samples.

Results

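The genes described here encode 10 enzymes of serine synthesis and of folate-bound carbon transfer, *PHGDH*, *PSAT1*, *PSPH*, *SHMT1*, *SHMT2*, *MTHFD1*, *MTHFD1L*, *MTHFD2*, *ALDH1L2*, and *GLDC*. They were chosen by name, and all 10 were found by Ensembl identifier among the 29483 genes of the table. RNA was sequenced from HK-2 cells, an immortalized human line derived from the proximal tubule of the kidney, in 3 control and 3 case replicates. Every replicate had been kept in high D-glucose (HG) medium at 25 mM for 7 days. The case group then received TEPP-46, a small molecule that activates the glycolytic enzyme PKM2, at 10 μM for 1 day while still in HG medium, and the control group stayed in HG medium without it. Both groups are from the same cell line, no group in normal glucose was among these samples, and the labels name no vehicle for the control group. The paper calls the replicates independent, and the labels do not say whether they were separate cultures, so the P-values measure the spread between these 6 samples of a single line.

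Serine is made from a glycolytic intermediate in 3 steps, by phosphoglycerate dehydrogenase (PHGDH), phosphoserine aminotransferase (PSAT1), and phosphoserine phosphatase (PSPH). Serine hydroxymethyltransferases then pass a carbon unit from serine to tetrahydrofolate and leave glycine, in the cytosol through SHMT1 and in mitochondria through SHMT2. In mitochondria, MTHFD2 oxidizes this unit and MTHFD1L releases it as formate, which cytosolic MTHFD1 takes up for the synthesis of purines and thymidylate. The pathway branches from glycolysis upstream of pyruvate kinase, and several of its genes are known targets of ATF4, a transcription factor of the amino acid response.

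The values were FPKM, that is, read numbers divided by gene length and by library depth, so that levels could be compared between genes. The library sizes that fit the steps of these values ran from 17378710 to 18634891 reads in the control group and from 15363254 to 16711934 reads in the case group. By these sizes, each case library was smaller than each control library. In the reads within exons that the paper lists, each case library was also smaller than each control library. In its clean and mapped reads, which include reads outside exons, case replicates 2 and 3 were instead larger than control replicate 3. The share of mapped reads in introns that it lists was higher in case replicates 2 and 3 than in any other library. Read numbers of genes are likewise whole numbers that fit, and a factor common to all 6 libraries cannot be seen in FPKM alone. In bulk RNA, fewer cells of a kind and less RNA per cell cannot be told apart. The label of the cells was examined with marker genes of the tissue. Of 12 proximal tubule markers, 9 were in the table, and all 9 were below 0.5 FPKM in every library, among them *LRP2*, *CUBN*, and *SLC34A1*. Their summed FPKM was 0.841, 0.923, and 0.939 in control replicates 1, 2, and 3 and 0.592, 0.687, and 0.799 in case replicates 1, 2, and 3, and the most abundant was *MME* with at most 0.389. Among the 5 renal epithelial markers in the table, the keratin gene *KRT8* reached 356 FPKM, whereas the renal transcription factor gene *PAX8* was below 0.5 in every library. The summed FPKM of these 5 was 566, 554, and 543 in the control libraries and 518, 419.7, and 484 in the case libraries, lower in every case library, and most of this sum was *KRT8*, which was not called (-0.27 ± 0.11 SE on the log2 scale, limma adjusted p = 0.125). Of the other 4, *CDH1* was called lower (-0.64 on the log2 scale, limma adjusted p = 0.0156), and *KRT18* (0.02) and *EPCAM* (0.04) were not called. *PAX8* was not tested, with means of 0.0803 FPKM for controls and 0.147 FPKM for cases. It had 9, 14, and 9 reads in the control libraries and 13, 17, and 22 reads in the case libraries. Its deposited values overlapped between the groups. After scaling, every case value was above every control value, as in 19.5% of all tested genes. The part of these values in the other results was not tested. The 6 markers of endothelium, leukocytes, mural cells, and podocytes in the table were also below 0.5 FPKM in every library, and their sum was at most 0.223. The cells thus expressed epithelial keratins, with the defining genes of the proximal tubule at or near 0.

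Transcripts of these enzymes spanned a wide range of levels. *PSAT1* was the most abundant with a mean of 489.9 FPKM over the 6 libraries, which ranked 66 among the 13599 genes tested. It was followed by *SHMT2* (143 FPKM), *PHGDH* (100.2 FPKM), *MTHFD2* (66.5 FPKM), and *PSPH* (44.6 FPKM). *MTHFD1* (20.4 FPKM), *MTHFD1L* (15.1 FPKM), *SHMT1* (13.3 FPKM), and *GLDC* (7.09 FPKM) were lower, and *ALDH1L2* was the lowest at 1.44 FPKM. In the control group, *SHMT1* (13.3 to 14.3 FPKM) and *MTHFD1L* (12.7 to 13.8 FPKM) overlapped and could not be ordered, whereas in the case group *MTHFD1L* was above *SHMT1* in every library. The mitochondrial enzymes were above their cytosolic counterparts for the serine hydroxymethyltransferases, and *MTHFD2* was above *MTHFD1*, in all 6 libraries.

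For the comparison, FPKM values were divided by a median-of-ratios factor per library, 0.1 was added, and log2 values of the genes with a mean of at least 0.5 FPKM were tested with limma. Benjamini-Hochberg adjustment was made over all genes tested, and a gene was called where the adjusted p did not exceed 0.05. All 10 genes passed the filter. Of these, 5 were called with higher expression in the case group, *PHGDH*, *PSAT1*, *PSPH*, *MTHFD2*, and *MTHFD1L*, and none was called with lower expression by limma. Over all tested genes, 7.34% were called higher and 5.84% were called lower. The median log2 fold change, case minus control, was 0.32 for the 10 genes and 0.00 for all tested genes. The 3 genes of serine synthesis rose together, and of the 4 mitochondrial folate genes 2 rose. An unadjusted p under 0.05 was found for 8 of the 10 genes, 6 of them higher and 2 lower, against 33.1% of all tested genes. The calls depended on single replicates, as did those of all genes. Without control replicate 2, none of the 10 genes was called, while 0.507% of all genes were called in either direction. In that omission 5 of the 10 genes had an unadjusted p under 0.05 with higher expression. The share of all genes at that unadjusted p was not taken for this omission, so the 5 cannot be set against the 0.507%. Without control replicate 1 or 3, *MTHFD2* alone was called, beside 0.771% and 0.64% of all genes. Without case replicate 3, *PSPH* and *MTHFD2* were called, beside 1.41% of all genes. *PHGDH*, *PSAT1*, and *MTHFD1L* thus lost their calls in each of these 4 omissions. Their log2 fold changes in these omissions were 0.40 to 0.46 for *PHGDH*, 0.49 to 0.52 for *PSAT1*, and 0.35 to 0.41 for *MTHFD1L*.

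**Figure D1:**
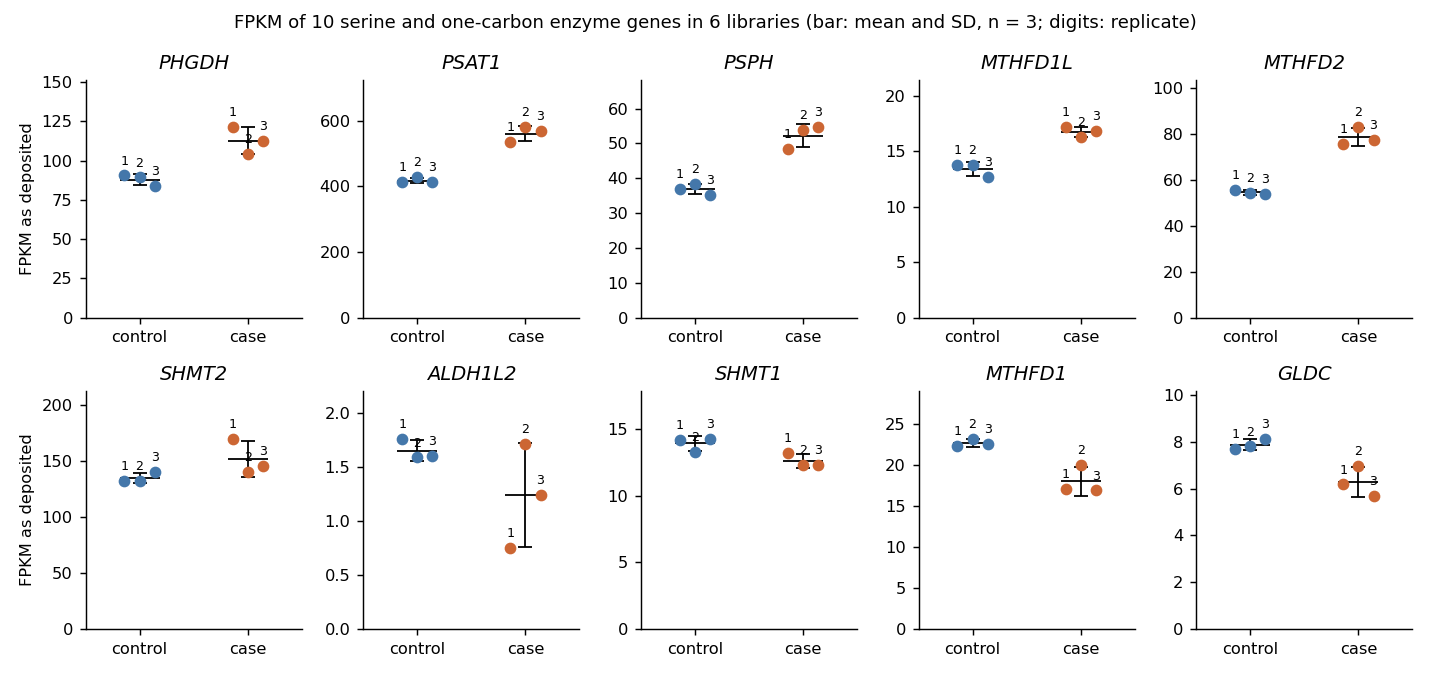
FPKM as deposited (vertical axis, from 0) of each of the 10 genes in the 3 control and 3 case libraries, with points numbered by replicate and bars for the mean and SD (n = 3). In *PHGDH*, *PSAT1*, *PSPH*, *MTHFD1L*, and *MTHFD2*, all case points lie above all control points.

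**Figure D2:**
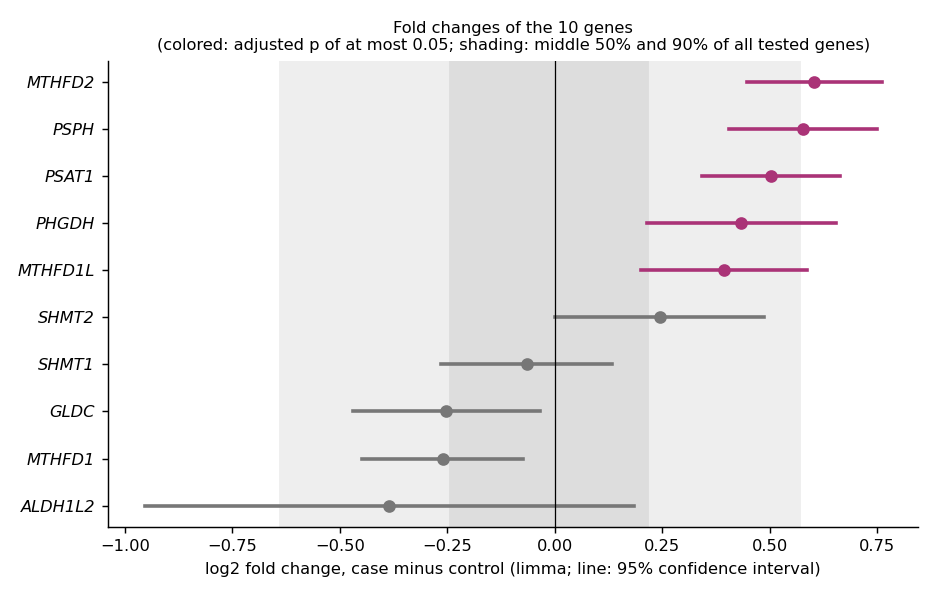
Log2 fold change, case minus control, of the 10 genes (points) with the 95% confidence interval of limma (lines), and shading for the middle 50% and 90% of all tested genes. The 5 colored genes had an adjusted p of at most 0.05, with *MTHFD2* highest at 0.60, and *ALDH1L2* had the widest interval.

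*PHGDH* (ENSG00000092621), on chromosome 1 of GRCh38 from 119648411 to 119744218, encodes the dehydrogenase at the entry into serine synthesis. Its FPKM was 90.5, 89.3, and 83.7 in control replicates 1, 2, and 3 and 121, 104, and 112 in case replicates 1, 2, and 3, on 8176 to 11382 reads. All case values were above all control values, with case replicate 1 the highest. Its log2 fold change was 0.43 with a standard error of 0.10, a 1.35-fold difference (limma adjusted p = 0.0268). The call was lost without the filter on low values (0.0713) and without the intensity trend (0.0619), and the log2 fold change was 0.23 after the FPKM sums were made equal (TPM) and 0.25 with quantile normalization, both still called.

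*PSAT1* (ENSG00000135069), on chromosome 9 from 78297125 to 78330093, encodes the transaminase of the second step, which takes its amino group from glutamate. The FPKM was 413, 428, and 413 in the control libraries and 535, 581, and 569 in the case libraries, and between 15709 and 20386 reads stood behind each value. The groups did not overlap, and case replicate 2 was the highest. The log2 fold change of *PSAT1* was 0.50 (SE 0.07, limma adjusted p = 0.0102), or 1.42-fold. With quantile normalization it was 0.16 and the gene was not called, without the filter on low values it was not called either (limma adjusted p = 0.0553), and with TPM it was 0.30 and called.

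*PSPH* (ENSG00000146733), on chromosome 7 from 56011051 to 56051604, encodes the phosphatase that releases free serine. It had 37.1, 38.3, and 35.3 FPKM in the control libraries and 48.4, 53.8, and 54.6 FPKM in the case libraries. No case value overlapped a control value, and case replicate 1 was the lowest of its group. It changed by a log2 fold of 0.58 with a standard error of 0.07 (limma adjusted p = 0.00864), which is 1.49-fold. With TPM it was 0.38 and called. A nearby pseudogene, *PSPHP1*, had 147 to 233 reads in each library, and *PSPH* reads could be shared with it. *PSPHP1* had 32.4 to 49.8 FPKM in the control group and 40.6 to 57.4 FPKM in the case group, which overlapped, and it was not called (0.35 ± 0.17 SE on the log2 scale, limma adjusted p = 0.192). The pseudogenes *MTHFD1P1*, *GLDCP1*, and *PSAT1P3* of the other genes were covered by at most 7 reads in any library.

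Within the serine synthesis genes the replicates of the case group were ordered differently, with case replicate 1 highest in *PHGDH* and lowest in *PSAT1* and *PSPH*. The ratio of *PSAT1* to *PHGDH* FPKM, which does not depend on the scaling between libraries, was 4.56, 4.80, and 4.94 in the control libraries and 4.42, 5.56, and 5.07 in the case libraries. These ranges overlapped.

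*MTHFD2* (ENSG00000065911), on chromosome 2 from 74186172 to 74217565, encodes the mitochondrial dehydrogenase and cyclohydrolase of the folate pathway, which is known for high expression in embryonic and proliferating cells. Its FPKM was 55.6, 54.2, and 53.7 in the control libraries and 75.6, 82.8, and 77.4 in the case libraries, on 4541 to 6473 reads. The case values were all above the control values, and case replicate 2 was the highest. *MTHFD2* had a log2 fold change of 0.60 (SE 0.07, limma adjusted p = 0.00547), or 1.52-fold, and by p it took rank 47 of the tested genes. It differed from that of *PSPH* (0.58) by less than the standard error of either. Of the settings tried, only the omission of control replicate 2 took it out of the called genes (log2 fold change 0.60, limma adjusted p = 0.0531).

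*MTHFD1L* (ENSG00000120254), on chromosome 6 from 150865679 to 151101887, encodes the mitochondrial synthetase that releases formate. Values of 13.8, 13.8, and 12.7 FPKM in the control libraries and 17.1, 16.3, and 16.8 FPKM in the case libraries were found, on 1109 to 1439 reads. The groups did not overlap and the case replicates lay close together. Its rise was 0.39 on the log2 scale with a standard error of 0.08 (limma adjusted p = 0.0254), or 1.31-fold. When the FPKM sums of the libraries were made equal (TPM), where the median of all tested genes was -0.19, it was 0.20 and the gene was not called. The call was also lost without the filter on low values (limma adjusted p = 0.0506) and without the intensity trend (0.0551).

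*SHMT2* (ENSG00000182199), on chromosome 12 from 57229573 to 57234935, supplies mitochondrial carbon units from serine. It had 132, 132, and 140.5 FPKM in the control libraries and 170.1, 140.1, and 145 FPKM in the case libraries. Case replicate 1 stood apart from the other two, and case replicate 2 lay just below control replicate 3, so the deposited values overlapped. After the median-of-ratios scaling they did not overlap, and the log2 fold change was 0.24 (SE 0.11, 95% confidence interval 0.00 to 0.49, limma adjusted p = 0.150). It was 0.14 when case replicate 1 was left out and 0.32 when case replicate 2 was (limma adjusted p = 0.178 and 0.0502), 0.04 with the FPKM sums made equal, and 0.01 with quantile normalization, and *SHMT2* was called under none of the settings tried.

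*ALDH1L2* (ENSG00000136010), on chromosome 12 from 105019784 to 105107643, encodes the mitochondrial enzyme that oxidizes formyl-tetrahydrofolate and makes NADPH. The FPKM was 1.76, 1.59, and 1.60 in the control replicates but 0.753, 1.71, and 1.24 in case replicates 1, 2, and 3, on 107 to 279 reads. Case replicate 2 was within the control range and case replicate 1 was far below it, so the groups overlapped. The log2 fold change of -0.38 had a standard error of 0.25 and a confidence interval from -0.95 to 0.18 (limma adjusted p = 0.310), and it was -0.11 when case replicate 1 was left out and -0.62 when case replicate 2 was left out (limma adjusted p = 0.653 and 0.0744). *ALDH1L2* had the widest spread in the case group relative to its mean. It overlaps *WASHC4* and *NOPCHAP1* on the opposite strand, and the strandedness of the libraries is not given in the sources used here, so that their reads cannot be told apart where exons coincide.

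Cytosolic *SHMT1* (ENSG00000176974), on chromosome 17 from 18327860 to 18363563, had 14.2, 13.3, and 14.3 FPKM in the control libraries and 13.2, 12.3, and 12.3 FPKM in the case libraries. As deposited, every case value was just below every control value, but after scaling the groups overlapped. The log2 fold change was -0.07 (SE 0.09, 95% confidence interval -0.26 to 0.13, limma adjusted p = 0.628). With TPM it was -0.26 and the gene was called lower, beside the median of -0.19 for all genes. *SHMT1* overlaps *SMCR8* on the opposite strand, which was covered by up to 1170 reads in a library.

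*MTHFD1* (ENSG00000100714), on chromosome 14 from 64388031 to 64463457, encodes the trifunctional enzyme that turns formate into folate-bound units in the cytosol. It had 22.4, 23.3, and 22.7 FPKM in the control libraries and 17.2, 20.1, and 16.9 FPKM in the case libraries. The case values were all below the control values, with case replicate 2 the nearest to them. Its log2 fold change was -0.26 with a standard error of 0.08, 0.835-fold, and did not pass the threshold (limma adjusted p = 0.0686). It did pass as lower with the FPKM unscaled (-0.34), with TPM (-0.46), and with quantile normalization (-0.32). It also passed without case replicate 2 (-0.32) and with voom on whole reads (-0.26). In each of these settings more genes were called lower over the whole table than the 794 of the reported setting. The median of all tested genes was -0.08 with the FPKM unscaled and -0.19 with TPM. After a correction for gene length, *MTHFD1* was at -0.07 (limma adjusted p = 0.532).

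The decarboxylase of the mitochondrial glycine cleavage system is encoded by *GLDC* (ENSG00000178445), on chromosome 9 from 6532467 to 6645729. Its values were 7.72, 7.81, and 8.14 FPKM in the control libraries and 6.18, 6.99, and 5.69 FPKM in the case libraries, on 407 to 670 reads. The groups did not overlap, with the case group lower. The log2 fold change of -0.25 (SE 0.09) did not pass the threshold (limma adjusted p = 0.108), but the gene was called lower with TPM (-0.45) and without case replicate 2 (-0.31). In these settings 2387 and 1682 of all tested genes were called lower, beside 794 in the reported setting. With TPM the median of all tested genes was -0.19. *GLDC* acts together with the products of *AMT*, *GCSH*, and *DLD*. *AMT* was at most 0.0453 FPKM in any library, which was noticed after its values were seen.

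Without overlap between the groups after scaling, 6 of the 10 genes were higher and 2 were lower in the case group, where 19.5% and 20.4% of all tested genes were. With the FPKM as deposited, 5 were higher and 3 were lower without overlap, beside 14.2% and 26.3% of all tested genes. Ratios between genes were then taken within each library, where the scaling between libraries cancels. The ratio of *MTHFD2* to *MTHFD1* FPKM was 2.49, 2.33, and 2.37 in the control libraries and 4.41, 4.13, and 4.57 in the case libraries, a mean of 2.39 ± 0.0808 (SD, n = 3) against 4.37 ± 0.222 (SD, n = 3). The ratio was thus 1.82-fold higher in the case group, far beyond the spread of either group. For *MTHFD1L* to *MTHFD1* it was 0.616, 0.592, and 0.561 against 1.00, 0.812, and 0.992, and *MTHFD1L* was nearly level with *MTHFD1* in case replicates 1 and 3. The ratio of *SHMT2* to *SHMT1* was 9.32, 9.93, and 9.84 in the control libraries and 12.9, 11.4, and 11.8 in the case libraries, 1.24-fold higher in the mean. These 3 ratios did not overlap between the groups. The other 2 mitochondrial genes did not share this pattern. The ratio of *GLDC* to *MTHFD1* was 0.345, 0.336, and 0.359 in the control libraries and 0.360, 0.348, and 0.336 in the case libraries, and that of *ALDH1L2* to *MTHFD1* overlapped as well, with means of 0.0726 and 0.0675. Between mitochondrial genes, the ratio of *GLDC* to *SHMT2* was 0.714-fold in the case group and that of *MTHFD2* to *ALDH1L2* was 2.13-fold, both without overlap. No test was run on these ratios because they were composed after values were seen.

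**Figure D3:**
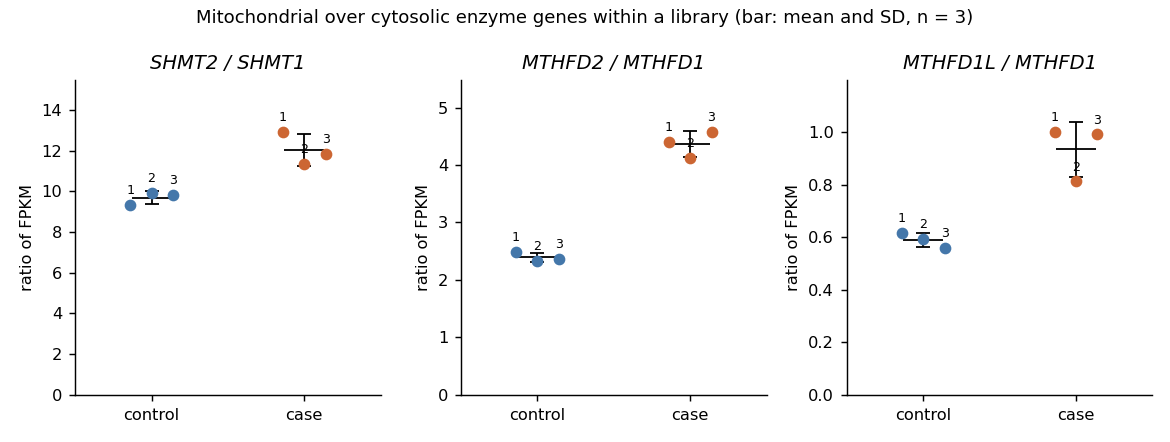
Ratio of the FPKM of *SHMT2*, *MTHFD2*, or *MTHFD1L* to that of a cytosolic enzyme gene within each library (vertical axis, from 0, no unit), with points numbered by replicate and bars for the mean and SD (n = 3). All case points lie above all control points in the 3 panels, and the *MTHFD2* to *MTHFD1* ratio has means of 2.39 (control) and 4.37 (case).

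Gene length moved with these results. Among all tested genes, the median log2 fold change was 0.15 for those under 3000 bases, -0.01 for those of 3000 to under 8000 bases, and -0.22 for those of 8000 bases or more, by the gene length that the FPKM values imply. For the longest class, the median relative to the control mean was -0.35, -0.09, and -0.25 in case replicates 1, 2, and 3. *MTHFD1* (9377 bases) and *ALDH1L2* (8507 bases) belong to the longest class, and *PSAT1* (2188 bases) and *PSPH* (2762 bases) to the shortest. After each library was corrected for this trend (a choice made once the values were known) the same 5 genes were called higher, with log2 fold changes of 0.62 for *MTHFD2*, 0.48 for *PHGDH*, 0.46 for *PSPH*, 0.41 for *MTHFD1L*, and 0.35 for *PSAT1*. That of *MTHFD1* was then -0.07 and that of *ALDH1L2* was -0.23, while that of *GLDC* (4656 bases) was -0.25. The log2 fold change of *MTHFD2* minus that of *MTHFD1* went from 0.86 to 0.69 with this correction, that of *MTHFD1L* minus *MTHFD1* from 0.65 to 0.49, and that of *SHMT2* minus *SHMT1* from 0.31 to 0.21. Other differences turned in sign, *PSAT1* minus *PHGDH* from 0.07 to -0.13, *PSPH* minus *PHGDH* from 0.14 to -0.03, and *GLDC* minus *MTHFD1* from 0.01 to -0.18. Those of *GLDC* minus *SHMT2*, *MTHFD2* minus *ALDH1L2*, and *ALDH1L2* minus *MTHFD1* kept their sign.

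**Figure D4:**
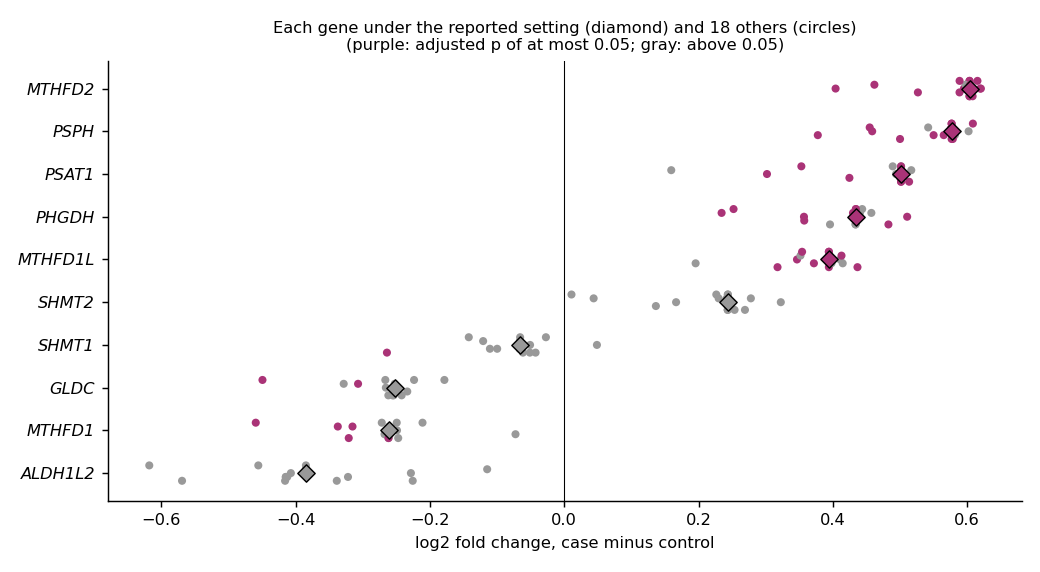
Log2 fold change, case minus control, of each of the 10 genes under the reported setting (diamonds) and under 18 other settings (circles), colored where the adjusted p was at most 0.05. *MTHFD2* stays between 0.40 and 0.62, and *SHMT1* is the only gene with values on both sides of 0.

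The other genes of the pathway were followed with a list of 42 genes, of which 41 were in the table and 32 were tested. In this list, 2 genes were called higher and 1 lower, and the median log2 fold change was 0.01. These counts are near the 7.34% called higher and 5.84% called lower over all tested genes, so the list did not stand out from them. None of the 11 tested folate genes was called by limma in either direction, with 1 at an unadjusted p under 0.05, and their median was 0.00. Over all tested genes 13.2% were called and 33.1% had an unadjusted p under 0.05, and with 11 genes the absence of calls is no result about the group. The most abundant of them, *FPGS*, which adds glutamate to folates and so retains them in the cell, had 53.1, 49.5, and 51.5 FPKM in the control libraries and 49.3, 39.9, and 42.5 FPKM in the case libraries. After scaling these overlapped (-0.15 ± 0.11 SE on the log2 scale, limma adjusted p = 0.356). The paralogs of 2 of the enzymes were at low levels, with *MTHFD2L* between 0.830 and 1.42 FPKM and *ALDH1L1* at most 0.0168 FPKM in the control group and listed at 0 in the case group, both named after their values had been seen.

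Among the 12 genes of serine and glycine supply, 11 were tested and 2 were called higher, beside 7.34% of all tested genes, and the median log2 fold change was 0.03. Both are plasma membrane transporters of small neutral amino acids that carry serine among others. *SLC1A5* had 83.3, 79.4, and 76.3 FPKM in the control libraries and 125, 116, and 114 FPKM in the case libraries. All case values were above all control values, and its log2 fold change was 0.65 (SE 0.09, limma adjusted p = 0.00917). *SLC1A4* had 6.39, 6.87, and 6.32 FPKM in the control libraries and 10.5, 10.5, and 9.02 FPKM in the case libraries. It did not overlap between the groups either, with a log2 fold change of 0.68 (SE 0.10, limma adjusted p = 0.0116). Neither gene was called without control replicate 2 or 3, where 0.507% and 0.64% of all tested genes were called in either direction. In the whole pathway list 1 gene was called higher without control replicate 1, where 0.771% of all tested genes were called in either direction. The remaining 9, among them the mitochondrial serine carrier gene *SFXN1* (log2 fold change 0.01), were not called. After scaling, 2 genes of this group were higher and 2 were lower without overlap, beside 19.5% and 20.4% of all tested genes. The 2 lower were *SFXN2* (-0.46 on the log2 scale) and *SPTLC2* (-0.33). An unadjusted p under 0.05 by limma was found for 4 of the group, beside 33.1% of all tested genes.

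In the methionine cycle and transsulfuration, 8 genes were tested and 1 was called, which is near the 13.2% of all tested genes. This was *MAT2A*, which encodes the enzyme that makes S-adenosylmethionine. Its FPKM was 41.2, 44.2, and 42.3 in the control libraries and 29.0, 34.7, and 28.0 in the case libraries. The case group was lower without overlap, with case replicate 2 nearest to the control group, and the log2 fold change was -0.41 (SE 0.09, limma adjusted p = 0.0266). The call was lost when low genes were not filtered, when no intensity trend was fitted, and without control replicate 1, 2, or 3 or case replicate 3. *AHCY*, the most abundant gene of this group, which encodes the hydrolase of S-adenosylhomocysteine, had a log2 fold change of -0.04 (SE 0.10, limma adjusted p = 0.817) on 116 to 132 FPKM in the control libraries and 109 to 125 FPKM in the case libraries. *DLD*, the most abundant glycine cleavage partner, also overlapped between the groups (0.11 ± 0.10 SE on the log2 scale, limma adjusted p = 0.479).

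Values of *ATF4* and 18 genes widely known as its targets outside the pathway were set beside these. Of the 19 genes, 13 were called higher and none was called lower by limma, with 15 at an unadjusted p under 0.05, and the median log2 fold change was 0.62, where 7.34% of all tested genes were called higher and 33.1% had such a p. The list was chosen with earlier results of these data known. Without control replicate 2 or 3, 7 of its genes were called, beside 0.507% and 0.64% of all tested genes. Without case replicate 3, 8 were called, beside 1.41% of all tested genes. The 10 enzyme genes, in comparison, had 5 called higher and a median of 0.32. *ATF4* itself had 307, 294, and 297 FPKM in the control libraries and 367, 347, and 369 FPKM in the case libraries. The groups did not overlap, and the log2 fold change was 0.35 (SE 0.08, limma adjusted p = 0.0296). The log2 fold changes of the 3 most abundant targets were 1.03 for *TRIB3*, a pseudokinase gene (SE 0.09, limma adjusted p = 0.00197), 0.83 for *SLC3A2*, the heavy chain of amino acid transporters (SE 0.10, limma adjusted p = 0.00748), and 0.82 for *ASNS*, asparagine synthetase (SE 0.07, limma adjusted p = 0.00209). The log2 fold changes of the 5 enzyme genes called higher, from 0.39 to 0.60, were below those of these 3 targets, which were named for their abundance. The whole list ran from 0.04 (*SLC7A11*) to 1.62 (*DDIT3*) and overlapped the range of the enzyme genes.

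**Figure D5:**
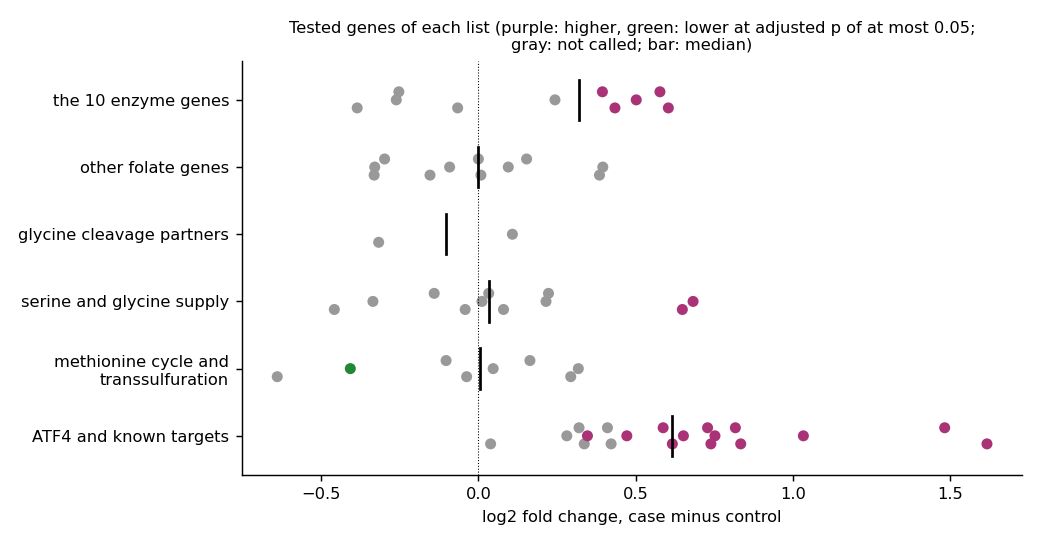
Log2 fold change, case minus control, of the tested genes of each list (points), colored where called at an adjusted p of at most 0.05, with a bar at the median of the list. The 10 enzyme genes are divided between 5 called higher at the right and 5 not called, and the medians of the other pathway groups lie near 0.

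To show sequence beside these values, the RefSeq promoter windows of GRCh38.p14, from 250 bases before to 50 bases after a gene start, were searched on both strands for 2 motifs. These were TGATGNAA, the core of the element bound by ATF4 with C/EBP factors, and CACGTG, the E-box. Windows were matched by symbol for 7 of the 10 genes, and none was matched for *PSPH*, *SHMT2*, and *ALDH1L2*. TGATGNAA was present in 3.62% of all windows and CACGTG in 7.26%. The 7 genes had 10 windows, of which 3 held TGATGNAA and 4 held CACGTG. *MTHFD1L* had several windows, some of them overlapping, so these counts cannot be set against the shares of all windows. Of the 7 genes, *MTHFD1L*, called higher, held both motifs, and *MTHFD1*, not called, held CACGTG. Every match among the enzymes is shown with 30 bases in the direction of the gene, 5′ to 3′, and the match in capitals. The TGATGNAA stretch of *MTHFD1L* is at chr6:150866346-150866375 on the plus strand and lies between RefSeq starts of the gene at 150866333 and 150866447. Its CACGTG stretch is at chr6:150866320-150866349 on the plus strand and crosses the start at 150866333. That of *MTHFD1* is at chr14:64388326-64388355 on the plus strand and crosses the RefSeq start of its window at 64388353, which differs from the start of the Ensembl gene given above.
MTHFD1L: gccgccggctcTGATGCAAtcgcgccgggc
MTHFD1L: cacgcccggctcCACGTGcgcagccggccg
MTHFD1: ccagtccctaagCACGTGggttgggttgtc
These matches are a description of the sequence, and binding was not measured. In the windows of *PHGDH*, *PSAT1*, and *MTHFD2*, which were also called higher, neither of these letter strings was present. The windows of *PHGDH* and *MTHFD2* are set at RefSeq starts (119711934 and 74198615) that lie inside the Ensembl genes, far from the gene starts given above, so other start sites of these genes were not searched.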

How the data were processed

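Reads of 6 HK-2 libraries were filtered by the authors, aligned to GRCh38.p13 with HISAT2 2.1.0, counted per gene with HTSeq 0.6.0, and deposited as FPKM, per the study's methods and the submitters' processing notes. RNA selection, strandedness, and annotation version are not given in the sources used here. Symbols and positions were matched by Ensembl identifier to an annotation of GRCh38 for 29063 of 29483 genes. Values of a gene are whole multiples of 1 read, so library sizes and whole reads per gene were derived from the steps between libraries. All 27922 genes above 0 gave whole reads within a tolerance of 0.02 reads. A gene above 0 in a single library does so by construction. The smallest solution was multiplied where a whole-number gene length required it. For genes with few reads it was also multiplied to bring that length near the exon length of the annotation.

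Testing covered the 13599 genes whose mean FPKM reached 0.5, with limma 3.58.1 in R 4.3.3 on log2(scaled FPKM + 0.1), with an intensity trend and no covariates. The scaling factors ran from 0.944 to 1.04. Fold changes on this scale understate the change of low genes. The median SD between replicates on this scale was 0.09 for controls and 0.19 for cases.

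The 10 genes and all lists were chosen with earlier results of these data known. Named genes were the 10 genes, their pseudogenes in the table, called genes of the pathway list and the most abundant gene of each of its groups, *ATF4*, and its 3 most abundant targets. Other genes were named after their values were seen. The alternatives were 2 pseudocounts, 2 filters, 3 scalings, limma without the trend or with robust estimation, a block for the replicate number, omission of each of the 6 libraries, and, added after the data were seen, voom on whole reads and a correction for gene length.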

Additional observations from a re-analysis of the deposited data

How the results depend on the processing

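The 5 genes called higher kept a positive log2 fold change under all 18 other settings, from 0.16 for *PSAT1* with quantile normalization to 0.62 for *MTHFD2*. Numbers called higher and lower over all genes were 998 and 794, which were 55.7% higher, and without a filter on low values they were 329 and 191, and without the intensity trend 436 and 416. With FPKM as deposited 662 were higher, 37.1% of calls, with TPM 383 were higher and 2387 lower, 13.8% higher, and with voom on recovered reads 1281 were higher and 1485 lower, which left 46.3% higher. Of the 10 genes, 2 were higher without a filter and 3 without the trend, and with FPKM as deposited, quantile normalization, and voom 1 was lower, with TPM 3. In the pathway list the 1 lower call was 0 without a filter (27922 genes tested) or trend, 6 with TPM, and 3 with voom. *SHMT1* turned from -0.07 to 0.0487 with the gene length correction. The cause was not tested.

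Without 1 library each, between 55 and 1813 genes were higher and between 14 and 1682 lower over all genes. The 10 genes had 0 to 5 higher and 0 to 2 lower, the pathway list 0 to 4 higher and 0 to 3 lower, and the *ATF4* list 7 to 14 higher. The lowest counts over all genes came without control replicate 2 and the highest without case replicate 2. The labels do not say whether same-numbered samples were handled together. Same-numbered samples deviated together with correlations of 0.06, 0.10, and -0.05, and not every sample correlated best with its own number. Deviations were taken from group means of 3 samples, which ties them to each other. These correlations therefore cannot show whether the samples were paired. With the replicate block 848 genes were higher and 762 lower, the same 5 of the 10 genes were called, and the pathway list had 2 lower.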
